A study of Mus musculus with 9 samples.

Results

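The 10 genes described here encode the transcription factor Nrf2 (gene Nfe2l2), its inhibitor Keap1, the repressor Bach1, heme oxygenase 1 (Hmox1) and 6 further direct targets of Nrf2, namely Nqo1, Gclc, Gclm, Txnrd1, Srxn1 and Slc7a11. They were chosen by name, for their place in this pathway, and each was found once, as a locus with a single gene name, among the 27095 loci of the expression table. All 10 had a mean expression of at least 1 FPKM over the 3 groups, the minimum used here, which 15548 loci reached. FPKM stands for fragments per kilobase of exon, scaled to the mapped fragments of a library, so levels of different genes can be compared per length.

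Nrf2 is the main activator of genes that counter oxidative and electrophilic stress. In resting cells Keap1 holds Nrf2 in the cytoplasm and hands it to a Cul3 ubiquitin ligase, and oxidants modify cysteines of Keap1 so that Nrf2 escapes, enters the nucleus and pairs with a small Maf protein on antioxidant response elements. Bach1 occupies many of the same elements as a repressor and lets go when it binds heme, which places heme oxygenase under both controls. Ethanol metabolism can produce reactive oxygen species, and much of the regulation of Nrf2 acts on the protein, so the level of its own mRNA need not follow its activity.

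RNA-seq was carried out on the brain of 9 wild-type mouse fetuses on gestational day 17, 3 per group, of the strain C57BL/6 by the labels and C57BL/6J by the methods of the study. Control fetuses came from dams injected intraperitoneally with lactated Ringer's solution on gestational day 7, and both exposed groups from dams given EtOH at 2.9 g/kg on that day. Exposed offspring without ocular or cortical patterning defects formed the unaffected group and those with such defects the affected group, so the exposed groups were separated by outcome and not by treatment. The tissue is fetal brain by the labels but cortex by the methods of the study, and the labels used here state neither the litter nor the sex of a fetus. The table holds 1 pooled value per group and locus, so the spread between fetuses could not be computed, no test between groups was run, and a higher or lower level below describes these pooled group values only, called pools below.

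The tissue label was checked with marker lists. Tubb3 (neurons), Neurod6 (cortical projection neurons) and Fabp7 (radial glia) stood at 1809, 409 and 2015 FPKM in control offspring. Ttr, a choroid plexus gene, stood at 970 FPKM and the joined beta-globin locus at 5357 FPKM, so RNA of choroid plexus and of red cells was also present. None of the marker loci found was at 0 in any group. In the order control, unaffected and affected, the summed level of radial glia markers was 2181, 2325 and 1509 FPKM, that of projection neuron markers 2506, 2419 and 2582 FPKM, and that of ventral forebrain markers 116, 134 and 131 FPKM. The most abundant of the ventral forebrain markers, Dlx1, had 41.3, 45.9 and 41.0 FPKM. Of the 5 genes of this list, 2, Dlx2 and Six3, were past 1.2-fold higher in the affected pool than in control, beside 17.9% of all loci. Their log2 ratios were 0.42 and 0.53. Markers of endothelium summed to 69.1, 68.0 and 68.8 FPKM, of choroid plexus to 991, 1315 and 1104 FPKM and of meninges to 70.8, 65.3 and 62.6 FPKM. Dcn led the meningeal sum, with 31.6, 28.1 and 22.1 FPKM. Of the 5 meningeal genes, however, 3 lay above control and 2 below it in the affected pool, with a median log2 ratio of 0.06. Cldn5 led the endothelial sum, with 36.9, 38.4 and 33.9 FPKM, while 2 of its 5 genes, Cdh5 and Flt1, were past 1.2-fold higher in the affected pool than in control, with log2 ratios of 0.42 and 0.28. The radial glia sum is mostly Fabp7, and 2 of its 5 genes, Sox2 and Pax6, were above control in the affected pool, with log2 ratios of 0.21 and 0.11. The choroid plexus sum was high in both exposed pools. Over 12333 named loci, the log2 ratio between groups followed transcript length, with Spearman's rho of -0.49 for unaffected against control, 0.52 for affected against control and 0.59 for affected against unaffected. These correlations are across genes, which share their libraries and are not independent replicates, and they mean that long transcripts were relatively high and short transcripts relatively low in affected offspring.

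Expression of the 10 genes spanned a wide range of levels, and their order was nearly the same in the 3 groups. Txnrd1 was first in every group, followed by Keap1, while Slc7a11 was last. Bach1 and Gclm exchanged the third and the fourth rank in unaffected offspring, and Hmox1, Nqo1 and Srxn1 changed order among ranks 7 to 9. Without values of single fetuses, it could not be said which neighbours in this order differ beyond the spread between animals.

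**Figure D1:**
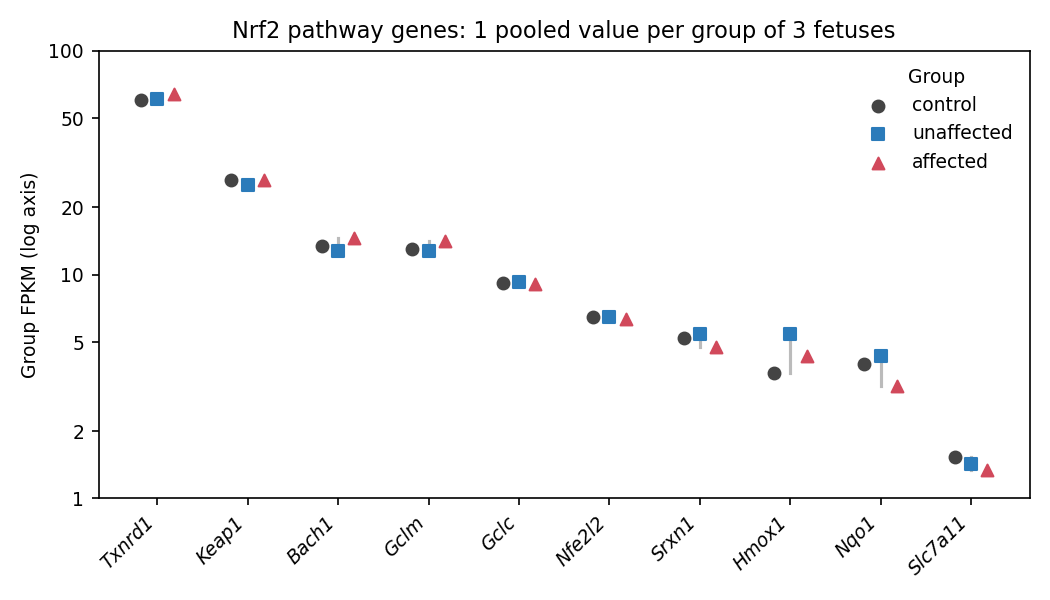
Group FPKM (log axis) of the 10 genes, ordered by mean level, with 1 pooled value each for control (circle), unaffected (square) and affected (triangle) offspring and a line from the lowest to the highest group. The 3 symbols nearly coincide for Gclc and Nfe2l2, and lie farthest apart for Hmox1, from 3.63 to 5.43 FPKM, and Nqo1, from 3.18 to 4.34 FPKM.

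For 8 of the 10 genes, the highest group was less than 1.2 times the lowest. The same held for 44.5% of all loci with a mean of at least 1 FPKM. The median of this ratio was 1.12 for the 10 genes and 1.23 for all these loci. The 2 genes outside this range were Hmox1 and Nqo1.

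Nfe2l2 and its inhibitor Keap1 were nearly level across the groups. Nfe2l2, on chromosome 2 of mm10 from 75675519 to 75704641, encodes Nrf2 and stood at 6.49 FPKM in the control, 6.47 in the unaffected and 6.33 in the affected pool. The largest of its group values was 1.03 times the smallest. Its log2 ratios were 0.00 for unaffected and -0.04 for affected against control. Keap1, on chromosome 9 from 21229730 to 21239332, encodes the adaptor that presents Nrf2 for degradation and had 26.3, 25.0 and 26.4 FPKM in the same order of groups. Its log2 ratio was -0.07 in unaffected and 0.01 in affected offspring against control. An antisense gene, Gm16754, covers 3317 bases of this locus, and because strand is not stated to have been used in counting, reads of the 2 genes cannot be told apart.

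Bach1, on chromosome 16 from 87698954 to 87733346, encodes the heme-sensing repressor. Its level was 13.4 FPKM in the control, 12.8 in the unaffected and 14.5 in the affected pool. The affected group was the highest, 1.14 times the unaffected group, but this direction turned with the length trend removed, to log2 ratios of -0.04 against control and -0.04 against unaffected. Keap1 mRNA exceeded Nfe2l2 mRNA 4.06-fold in the control, 3.87-fold in the unaffected and 4.18-fold in the affected pool, and Bach1 mRNA exceeded it 2.07-fold, 1.97-fold and 2.30-fold. The balance of inhibitor, repressor and activator mRNA thus differed little between the pools.

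Hmox1 had the largest difference of the 10 genes. It encodes the inducible enzyme that opens heme into biliverdin, carbon monoxide and iron, and lies on chromosome 8 from 75093618 to 75100593. Its FPKM was 3.63 in the control, 5.43 in the unaffected and 4.33 in the affected pool, so both exposed groups lay above control and the unaffected group was the highest. The unaffected level was 1.496 times control, a log2 ratio of 0.58 at the percentile 97.4 of all loci. The affected level was 1.19 times control, a log2 ratio of 0.25 at the percentile 81.2, just inside the limit of 1.2-fold. Affected offspring had 0.798 times the unaffected level, a log2 ratio of -0.33. Once the length trend was removed, that difference was -0.07 and no longer past 1.2-fold, while the affected pool was past it against control, at 0.40. Hmox2, the constitutive heme oxygenase of neurons, was more abundant than Hmox1 in every group, 10.1-fold in the control, 7.18-fold in the unaffected and 7.71-fold in the affected pool.

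Markers of red cells, which carry the heme that Hmox1 degrades, were also high in the unaffected pool. All 7 erythroid loci that reached 1 FPKM were at least 1.2-fold higher in unaffected than in control offspring, beside 7.45% of all loci, among them Alas2, the erythroid enzyme of heme synthesis, with 18.9 FPKM in the control, 25.2 in the unaffected and 17.8 in the affected pool. In affected against control offspring, 2 of the 7 were higher and 3 lower, beside 17.9% and 16.0%. The summed level of the 8 erythroid loci found was 5816 FPKM in the control, 7527 in the unaffected and 3653 in the affected pool. In the affected pool this sum was thus below control while Hmox1 was above it. Macrophages, which clear red cells, also express Hmox1, and the summed level of 8 microglia and macrophage genes was 52.2, 54.5 and 45.1 FPKM in control, unaffected and affected offspring. The most abundant of them, C1qb, had 17.8, 20.5 and 15.0 FPKM. Of the 7 of these genes above 1 FPKM, 2 (C1qb and P2ry12) lay above control and 5 below it in the unaffected pool, with a median log2 ratio of -0.01, and 3 (Csf1r, P2ry12 and Mrc1) lay above control in the affected pool. The part of these cells in the level of Hmox1 was not tested, and in bulk tissue fewer cells of a type and less RNA per cell cannot be told apart.

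**Figure D2:**
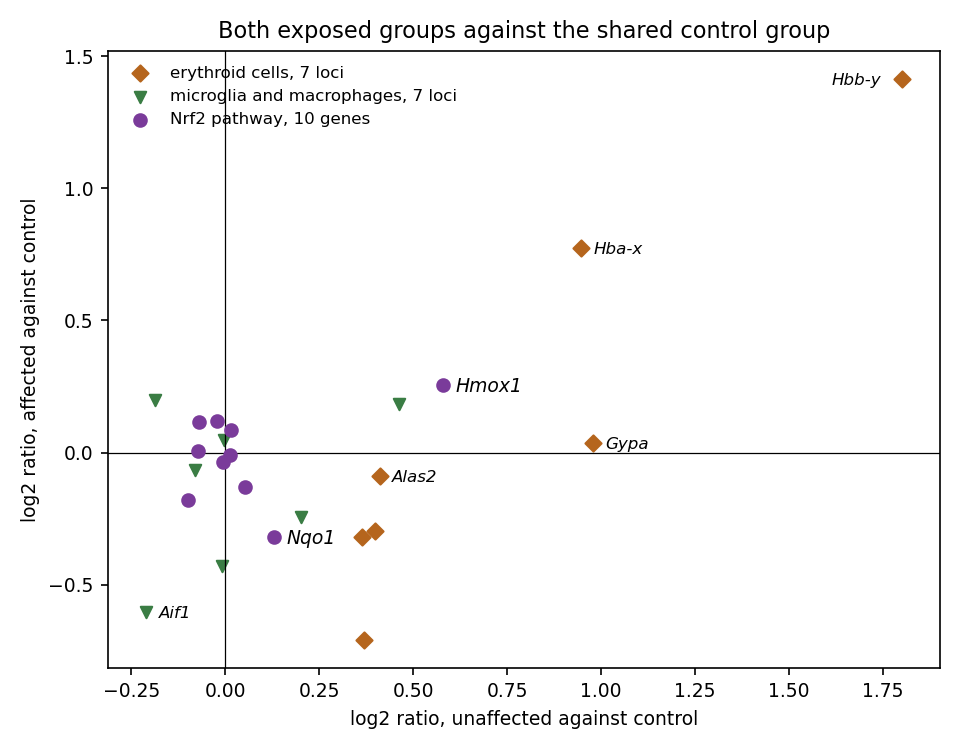
Log2 ratio of group FPKM for unaffected (horizontal axis) and affected (vertical axis) against the shared control group, with 10 Nrf2 pathway genes (circles), 7 erythroid loci (diamonds) and 7 microglia and macrophage genes (triangles). Hmox1 lies at 0.58 and 0.25, apart from the remaining pathway genes, and all erythroid loci lie to the right of 0 on the horizontal axis.

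By the Euclidean distance of centred log2 FPKM over the 3 group values, the pattern of Hmox1 was nearest to that of 2610204G22Rik, A330048O09Rik, Fgd5, Pianp and A930005H10Rik among 12439 named loci. Their distances were 0.0273, 0.0333, 0.0410, 0.0506 and 0.0638 log2 units. Fgd5, an endothelial gene, had 1.64 FPKM in the control, 2.36 in the unaffected and 1.94 in the affected pool. The 5 endothelial markers did not share its rise in the unaffected pool. There, 2 of them lay above control and 3 below it, with a median log2 ratio of -0.16. With 3 values, likeness of pattern is a weak criterion.

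Nqo1 was the only gene of the 10 that was lower in affected offspring than in control by at least 1.2-fold, a call that was lost with a pseudocount of 1 (log2 ratio -0.25) and with the length trend removed (-0.18, and -0.20 against unaffected). It encodes a quinone reductase that is widely read as a marker of Nrf2 activity, and lies on chromosome 8 from 107388225 to 107403205. Its FPKM was 3.97 in the control, 4.34 in the unaffected and 3.18 in the affected pool. The affected level was 0.800 times control (log2 ratio -0.32) and 0.731 times unaffected (log2 ratio -0.45). In unaffected offspring Nqo1 was 1.09 times control. Hmox1 and Nqo1 were therefore both highest in the unaffected pool, while in the affected pool one lay above control and the other below it. The ratio of Hmox1 to Nqo1 mRNA was 0.915 in the control, 1.25 in the unaffected and 1.36 in the affected pool.

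The genes of glutathione synthesis did not share these differences. Gclc encodes the catalytic subunit of glutamate-cysteine ligase, which makes the rate-limiting step, and lies on chromosome 9 from 77754535 to 77794489. It stood at 9.17 FPKM in the control, 9.25 in the unaffected and 9.12 in the affected pool, the narrowest range of the 10 genes, with a highest value 1.01 times the lowest. Gclm encodes the modifier subunit and lies on chromosome 3 from 122245521 to 122269879, with 13.0, 12.8 and 14.1 FPKM in control, unaffected and affected offspring. Gclm mRNA was 1.42 times Gclc mRNA in the control, 1.38 times in the unaffected and 1.55 times in the affected pool. The log2 ratios of Gclm for the affected pool, 0.12 against control and 0.14 against unaffected, turned to -0.03 and -0.06 with the length trend removed. The Gclm locus also holds a pseudogene, Gm6061, over 492 bases, and an opposite-strand transcript, Gm17494, over 13922 bases, which makes its level uncertain.

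Slc7a11, on chromosome 3 from 50364936 to 50443613, encodes the cystine importer that supplies cysteine for glutathione. It was the lowest of the genes, with 1.53 FPKM in the control, 1.42 in the unaffected and 1.35 in the affected pool. Both exposed pools were below control, at 0.933 and 0.883 times its level. After removal of the length trend, its log2 ratio against control was 0.05 in the unaffected and -0.41 in the affected pool, so the sign turned in the unaffected pool. An unverified transcript, Gm37498, overlaps the locus on the same strand over 4002 bases. Slc3a2, the partner chain with which Slc7a11 reaches the membrane and which also serves amino acid carriers of other kinds, was 33.6 times as abundant in the control, 36.9 times in the unaffected and 37.2 times in the affected pool.

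Among the thiol enzymes, Txnrd1, the cytosolic thioredoxin reductase, was the most abundant of the 10 genes. It lies on chromosome 10 from 82833951 to 82897731 and had 60.2 FPKM in the control, 60.9 in the unaffected and 63.8 in the affected pool. The highest group was 1.06 times the lowest. The short gene Eid3 overlaps this locus on the same strand over 1305 bases and Gm38560 and Gm47073 on the opposite strand over 13276 and 1393 bases, so its level is uncertain in the same way. Srxn1, which encodes sulfiredoxin, the enzyme that repairs overoxidized peroxiredoxins, lies on chromosome 2 from 152105524 to 152111376. Its FPKM was 5.21 in the control, 5.40 in the unaffected and 4.76 in the affected pool, so that the affected pool was the lowest, at 0.914 times control.

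The comparison of unaffected with control offspring asks which differences follow exposure in fetuses without defects. Of the 10 genes, 1 was higher by at least 1.2-fold, Hmox1, and 0 were lower, while 7.45% of all loci were higher and 9.75% lower by that much. The log2 ratios ran from -0.10 for Slc7a11 to 0.58 for Hmox1, with a median of 0.00 for the 10 genes and 0.01 for all loci. The remaining 9 genes lay within 0.2 of 0 on the log2 scale. The share of higher genes is a single gene and near the background.

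The comparison of affected with control offspring spans both exposure and defects, so a difference in it cannot be assigned to either alone. Here 0 of the 10 genes were higher and 1, Nqo1, was lower by at least 1.2-fold, against 17.9% and 16.0% of all loci. The log2 ratios ran from -0.32 for Nqo1 to 0.25 for Hmox1. Their median was 0.00, and that of all loci 0.02. Taken without sign, the median log2 ratio was 0.12 for the 10 genes and 0.19 for all loci.

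Between the exposed groups, 0 of the 10 genes were higher and 2, Hmox1 and Nqo1, were lower in affected offspring, against 25.4% and 23.3% of all loci. The median log2 ratio was -0.03 for the 10 genes and 0.01 for all loci, and without sign 0.11 and 0.26. All 3 comparisons share pools, so they are not independent of each other. With a limit of 1.5-fold in either direction, 0 of the 10 genes passed in each comparison, while 5.87% of all loci passed for unaffected against control, 6.91% for affected against control and 12.6% for affected against unaffected.

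**Figure D3:**
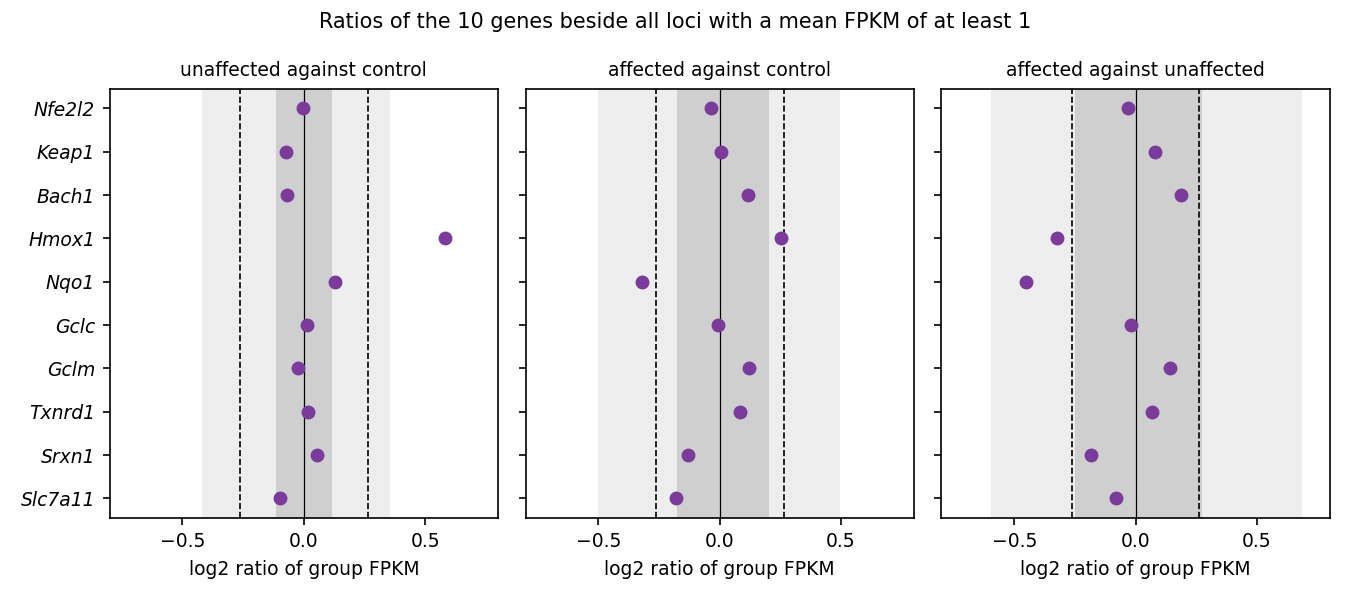
Log2 ratio of group FPKM of each of the 10 genes (points) in the 3 comparisons. The dark band runs from the lower to the upper quartile and the light band from the percentile 5 to the percentile 95 of 15548 loci, and dashed lines mark 1.2-fold. Hmox1 is the only gene outside the light band, for unaffected against control, and most points lie within the dark bands.

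Transcripts of Hmox1 and Nqo1 are the shortest of the 10 genes, with 1569 and 1553 nt for the longest GENCODE transcript, and that of Slc7a11 is the longest, with 9223 nt. The length trend was therefore removed by subtracting a running median. This had been planned for all loci, and its restriction to loci with a single gene name was chosen after seeing the data. Hmox1 then had log2 ratios of 0.48 in unaffected and 0.40 in affected offspring against control, and -0.07 between the exposed groups. Thus the affected pool moved past the 1.2-fold limit for Hmox1, and the difference between the exposed pools lay inside it. Nqo1 had -0.18 for affected against control and -0.20 against unaffected, no longer past 1.2-fold. Slc7a11 moved past it, with -0.41 and -0.46, since long transcripts were relatively high in affected offspring and this gene was not. The part of transcript length in the uncorrected differences of these genes was not tested further.

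After this correction, 1 of the 10 genes (Hmox1) was higher in unaffected than in control offspring and 0 were lower, against 2.94% and 2.90% of 12333 loci. For affected against control, 1 was higher (Hmox1) and 1 lower (Slc7a11), against 8.08% and 10.8%. For affected against unaffected, 0 were higher and 1 lower (Slc7a11), against 14.9% and 15.3%. The levels of Nfe2l2, Keap1, Gclc and Txnrd1 stayed within 0.1 of 0 on the log2 scale in all 3 comparisons.

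Promoter sequence was examined because Nrf2 and Bach1 meet on the antioxidant response element. Since 7 of the 10 genes were chosen as direct targets of Nrf2, which binds through this element, its presence is tied to that choice and is given as a description only. RefSeq promoter windows (GRCm38.p6, from 250 bases before to 50 bases after the annotated start) were at hand for 8 of the 10 genes, Nfe2l2, Keap1, Bach1, Nqo1, Gclm, Txnrd1, Srxn1 and Slc7a11. The core TGACNNNGC of the element was searched on both strands. Its first letters also begin the AP-1 site, but none of the matches continued as one. At least 1 window of 4 of these 8 genes held a match, and so did 14.0% of all genes with a window and 17.0% of those with a mean of at least 1 FPKM. The 4 stretches below are shown because they hold these matches, in capitals, and are written 5′ to 3′ on the strand of the gene. They lie at chr2:75704855-75704913 (minus strand, Nfe2l2), chr3:122245383-122245471 (plus strand, Gclm), chr10:82859074-82859162 (plus strand, Txnrd1) and chr2:152105542-152105570 (plus strand, Srxn1).
Nfe2l2: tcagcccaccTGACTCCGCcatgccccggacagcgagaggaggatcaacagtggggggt
Gclm: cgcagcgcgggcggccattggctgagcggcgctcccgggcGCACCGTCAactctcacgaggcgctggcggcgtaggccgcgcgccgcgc
Txnrd1: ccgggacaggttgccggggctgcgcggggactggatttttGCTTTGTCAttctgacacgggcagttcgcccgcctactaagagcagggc
Srxn1: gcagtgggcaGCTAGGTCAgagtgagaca

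The match of Nfe2l2, TGACTCCGC, begins 240 bases before the annotated start and reads along the gene. The matches of Gclm, Txnrd1 and Srxn1 read TGACGGTGC, TGACAAAGC and TGACCTAGC on the opposite strand. That of Txnrd1 lies before the start of a shorter transcript, inside the longest gene model, and that of Srxn1 lies after the start. The 4 genes with a match, Nfe2l2, Gclm, Txnrd1 and Srxn1, had a highest group less than 1.2 times the lowest, and so had 3 of the 4 genes with a window but no match, Keap1, Bach1 and Slc7a11. The fourth, Nqo1, did not. No match says only that these letters are absent from the window. A match is a description of the sequence and not of binding.

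A list of 49 other genes of the pathway, sorted by role, was read beside the 10 genes. All 49 were found and 45 had a mean of at least 1 FPKM. The 4 genes below it were Nfe2, Abcc4, Osgin1 and Aldh3a1. In unaffected against control offspring, 2 of the 45 were higher and 1 lower by at least 1.2-fold (4.44% and 2.22%, beside 7.45% and 9.75% of all loci). For affected against control, 4 were higher and 10 lower (8.89% and 22.2%, beside 17.9% and 16.0%), and for affected against unaffected 7 were higher and 12 lower (15.6% and 26.7%, beside 25.4% and 23.3%). With the length trend removed, 43 of these genes could be read, and 0 were higher and 0 lower for unaffected against control, 3 higher and 4 lower for affected against control and 3 higher and 9 lower for affected against unaffected. Those 3 comparisons had 2.94% and 2.90%, 8.08% and 10.8%, and 14.9% and 15.3% of loci higher and lower. The median log2 ratio of the list was 0.03, -0.04 and -0.07 before this removal, beside 0.01, 0.02 and 0.01 for all loci, and 0.00, -0.02 and 0.01 after it.

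Among the partners of Nrf2 and the parts of its ligase, Bach2 differed most. This relative of Bach1 had 12.1 FPKM in the control, 9.75 in the unaffected and 17.7 in the affected pool, a log2 ratio of -0.32 and 0.54 against control and of 0.86 between the exposed groups. Gsk3b, a kinase that can mark Nrf2 for removal independently of Keap1, followed the same order, with 28.7, 24.7 and 36.9 FPKM. Nfe2l3, which encodes the related factor Nrf3, had 9.71, 8.55 and 10.5 FPKM. Transcripts of Bach2 and Gsk3b are long, with 8882 and 8303 nt, and with the length trend removed their log2 ratios for affected against control were 0.31 and 0.14. Of the 11 genes of this role above 1 FPKM, 2 were higher and 1 lower in affected than in control offspring, beside 17.9% and 16.0% of all loci, and 1 was higher and 1 lower with the length trend removed, beside 8.08% and 10.8% of loci.

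Among the genes that act after heme oxygenase, both biliverdin reductases and the ferritin genes Fth1 and Ftl1 were lowest in the affected pool. Fth1 had 867, 909 and 761 FPKM and Ftl1 2209, 2401 and 2010 FPKM in the control, unaffected and affected pools. With the length trend removed, their log2 ratios for affected against control were -0.09 and 0.15. Slc40a1, the exporter of iron, was highest in the affected pool, with 5.10, 5.54 and 6.01 FPKM in the same order of groups. Blvra, a biliverdin reductase that turns biliverdin into bilirubin, had 13.5 FPKM in the control, 15.2 in the unaffected and 9.83 in the affected pool. Its log2 ratio was -0.46 for affected against control. Blvrb, the second biliverdin reductase, which is abundant in red cells, had 13.0, 16.0 and 10.7 FPKM. All of the 8 genes of heme and iron handling passed the minimum level, 7 lay above 0 on the log2 scale in unaffected offspring and 6 below 0 in affected offspring, against control. Of all loci, 51.6% lay above 0 in the first and 47.0% below 0 in the second comparison. With the length trend removed, 4 of the 8 genes lay above 0 in unaffected and 6 below 0 in affected offspring. The only one past 1.2-fold in unaffected offspring was Blvrb, with a log2 ratio of 0.30, which was 0.20 and no longer past 1.2-fold with the length trend removed. Blvra then had -0.30 and Blvrb -0.13 for affected against control.

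Genes of glutathione synthesis and recycling and of NADPH supply differed little. None of the 6 genes of the first role and none of the 6 genes of the second was past 1.2-fold in either exposed group against control, beside 7.45% of all loci higher and 9.75% lower in the unaffected and 17.9% higher and 16.0% lower in the affected pool. For affected against unaffected, 1 of the 6 glutathione genes was lower, Gss, the glutathione synthetase, with a log2 ratio of -0.28, beside 23.3% of all loci. After removal of the length trend, 2 of these 6 genes were lower in that comparison, beside 15.3% of loci. Of the 6 genes of thioredoxin and quinone reduction, 1 was higher and 3 lower in affected offspring than in control, beside 17.9% and 16.0% of all loci, and 1 was higher and 2 lower with the length trend removed, beside 8.08% and 10.8% of loci. The most abundant of the named ones, Prdx1, a peroxidase that thioredoxin recharges, had 157, 176 and 119 FPKM and a log2 ratio of -0.41 for affected against control.

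In conjugation, export and detoxification, 1 of 8 genes was higher and 4 were lower in the affected pool than in control, beside 17.9% and 16.0% of all loci. With the length trend removed, 1 of 7 was higher and 0 were lower, beside 8.08% and 10.8% of loci. Cbr3, a carbonyl reductase, had 1.19 FPKM in the control, 1.51 in the unaffected and 0.862 in the affected pool. Its log2 ratios were 0.34 and -0.46 against control and -0.80 between the exposed groups, the same order of groups as for Nqo1. Gstp1, a glutathione transferase, had 47.2, 44.8 and 35.1 FPKM, a log2 ratio of -0.43 for affected against control. With the length trend removed, these values were -0.23 for Cbr3 and -0.11 for Gstp1.

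**Figure D4:**
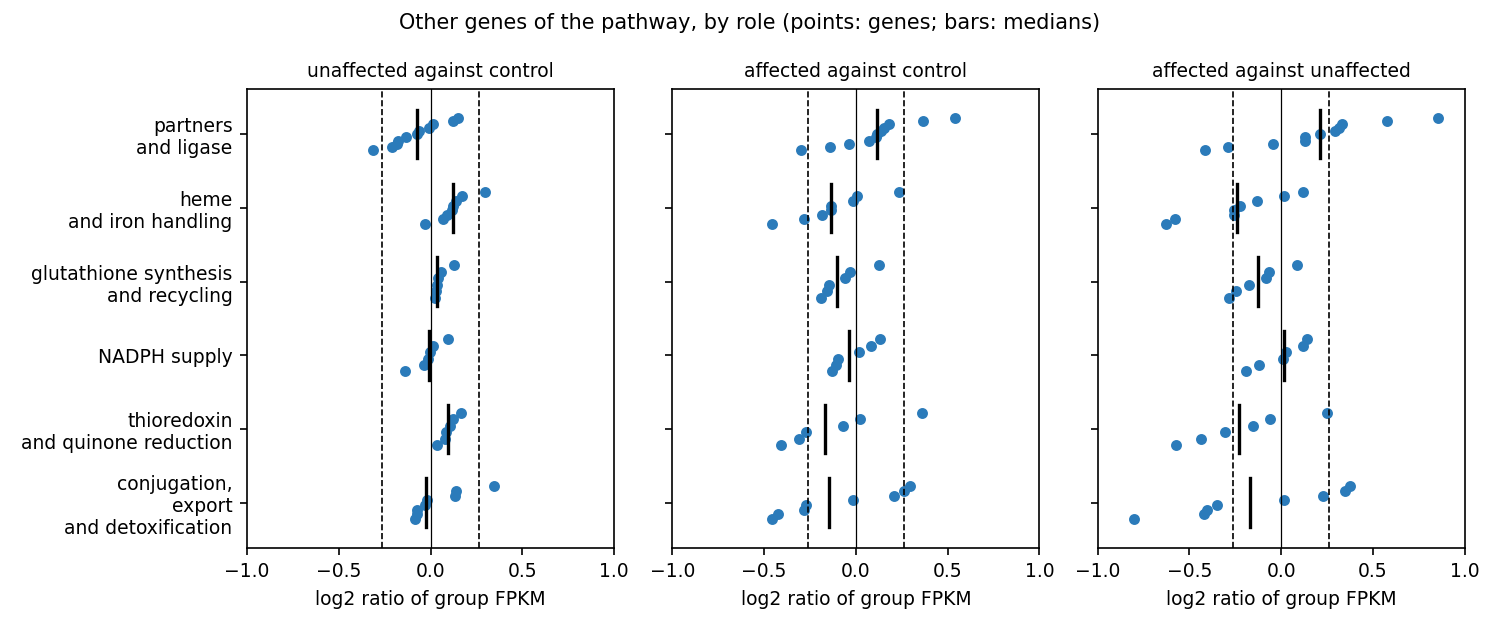
Log2 ratio of group FPKM of 45 other genes of the pathway in the 3 comparisons, by role, with points for genes, bars for medians and dashed lines at 1.2-fold. The partners and ligase genes have a median of -0.08 in unaffected and 0.12 in affected offspring against control, and the heme and iron genes 0.12 and -0.14.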

How the data were processed

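RNA-seq libraries of 9 fetuses were sequenced by the authors as paired reads of 50 bases and aligned to mm10, with STAR or Bowtie and TopHat (the methods list each of them), and the submitters' processing notes list Bowtie2 2.2.4.0, Cufflinks and Cuffdiff. The deposited FPKM values are 1 per group and locus, taken by the authors over the 3 fetuses of the group. The table also holds the authors' own comparisons (fold changes, test statistics, p-values and q-values), and these were not used. Columns for single fetuses numbered 0, so depth per library is not given in the sources used here, and no error, interval or test was computed.

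Log2 ratios were computed from log2(FPKM + 0.01) for loci with a mean of at least 1 FPKM over the 3 groups, and 1.2-fold was the limit for a higher or lower level. The 10 genes, the gene lists and the rules for named genes were chosen with earlier results of these data known. Named from the lists were the 5 pathway genes with the largest log2 ratio in each comparison, the most abundant gene of each marker list, and the 5 loci nearest Hmox1 in pattern. Further marker genes named (Neurod6, Alas2, Sox2, Pax6, P2ry12, Csf1r, Mrc1, Cdh5, Flt1, Dlx2, Six3 and the embryonic globins), Hmox2, Slc3a2, Gss, Slc40a1, Fth1, Ftl1 and the genes below the minimum level were chosen after their values were seen. Alternatives were a limit of 1.5-fold, no filter, a mean of at least 5 FPKM, a pseudocount of 1, centring on the median of all loci and removal of a running median over 501 genes ordered by transcript length (GENCODE M21), which was checked on simulated data. Starts in the table count from 0 and are printed here counting from 1. Python 3.11.15, numpy 2.4.6, pandas 2.3.3, scipy 1.17.1 and matplotlib 3.10.9 were used.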

Additional observations from a re-analysis of the deposited data

How the results depend on the processing

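No paired analysis was possible because the table holds 1 pooled value per group, and for the same reason no fetus could be left out. The planned removal of a length trend over all loci was not run, since only 79.3% of them had a transcript length, and it was run instead on loci with a single gene name, of which 99.1% had one. With a limit of 1.5-fold, 0 of the 10 genes passed in each comparison, and of the 45 other pathway genes 0 passed for unaffected against control, 0 for affected against control and 3 for affected against unaffected. With a mean of at least 5 FPKM, Hmox1, Nqo1 and Slc7a11 were left out, and 0 of the 7 remaining genes passed in each comparison, beside 14.1% of loci higher and 15.0% lower for affected against control. With a pseudocount of 1, 0 of the 10 genes and 8 pathway genes passed for affected against control, beside 13.2% of loci higher and 12.5% lower, and Hmox1 had a log2 ratio of 0.47 for unaffected against control. With no filter, 6 of 49 pathway genes passed for unaffected against control, beside 14.0% of 23352 loci higher and 15.6% lower. With the length trend removed, 2 of the 10 genes passed for affected against control and 1 for affected against unaffected, and 0, 7 and 12 pathway genes passed in the 3 comparisons in the order given above. Centring moved no log2 ratio of the 10 genes by 0.1 or more, and the median over the 10 genes moved by less than 0.1 under each alternative. The precision of every value is limited by 3 fetuses per group.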

Other observations

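Within the erythroid marker list, 2 embryonic globins stood apart from the beta-globin locus. Hbb-y, a globin of yolk sac red cells, had 0.953 FPKM in the control, 3.34 in the unaffected and 2.56 in the affected pool, and Hba-x, its alpha-like counterpart, had 1.33, 2.58 and 2.29 FPKM. Both were higher in both exposed pools than in control, with log2 ratios of 1.80 and 1.41 for Hbb-y and of 0.95 and 0.77 for Hba-x. A joined beta-globin locus, which holds the adult genes and the embryonic Hbb-bh1, had 5357, 6924 and 3277 FPKM, above control in the unaffected and below it in the affected pool. Hmox1 had the order of groups of the embryonic globins, lowest in control and highest in the unaffected pool. Genes of other marker lists shared this order, so it is not particular to red cells. Among them were Ttr, with 970, 1291 and 1077 FPKM, and P2ry12, with 2.72, 3.74 and 3.09 FPKM.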
